A study of Mus musculus with 24 samples.

Results

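Mature miRNAs carried by serum extracellular vesicles (EVs) were compared between mice killed 24 h after tibia surgery (S24h) and control mice (Control). Of the 1966 mature miRNAs in the deposited count table, 243 had at least 10 counts per 1000000 (CPM) in at least 6 of these 12 libraries and are described here. They held at least 99.4% of the counts of every library.

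The series holds 24 small RNA libraries, 1 per mouse and 6 for each of Control, S6h, S24h and S72h, where the number is the hours from surgery to blood sampling. All mice were wild type C57BL/6 males of 14 to 16 weeks. Surgery was an open osteotomy of the tibia, stabilized with a pin in the marrow canal, under isoflurane anaesthesia with buprenorphine, and the S24h mice received analgesia daily, whereas Control mice received saline injections only. The methods state that the Control libraries come from the control mice of the 6 h experiment, and the control mice kept with the S24h and S72h animals were not analysed here. Fracture, anaesthesia, analgesia and set of animals therefore cannot be told apart in the comparison of S24h with Control. The methods also report that both sets of control mice did not differ statistically, which was not tested here. Serum came from coagulated blood, and EVs were precipitated and column-purified with a kit, without selection by tissue of origin. In such a bulk preparation, fewer EVs of a given source and less RNA per EV cannot be told apart.

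A miRNA is a short RNA that guides an Argonaute protein to messenger RNAs, mostly by pairing of bases 2 to 8 of the miRNA, the seed, with a site in the message. miRNAs with the same seed form a family with overlapping targets, and each hairpin precursor can release a miRNA from its 5p arm and from its 3p arm. Cells release miRNAs inside EVs and on proteins and lipoproteins, and in blood the red cells, platelets and liver are known as large sources.

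Mature sequences were taken from RefSeq (GRCm38.p6), in which 209 of the 243 miRNAs were matched and 34 were not. The sequences below, 5′ to 3′ with the seed in capitals, are shown because they let single miRNAs be set against others of their family below. The let-7 miRNAs, which restrain growth and mark differentiated cells, had log2 fold changes above 0 in S24h. Of the 9 members of the let-7 and miR-98 list 3 were called, and let-7a-5p was not. Both miR-26 miRNAs were called higher.

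let-7a-5p: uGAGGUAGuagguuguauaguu

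let-7b-5p: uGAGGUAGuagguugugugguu

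let-7c-5p: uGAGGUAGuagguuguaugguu

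let-7e-5p: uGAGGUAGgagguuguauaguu

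miR-26a-5p: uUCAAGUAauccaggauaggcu

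miR-26b-5p: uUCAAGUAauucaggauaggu

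The next sequences belong to families on the lower side in S24h: miR-29, which represses collagens and other matrix genes, miR-27, the miR-17/93 seed, miR-15/16, and miR-192 with miR-215.

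miR-29a-3p: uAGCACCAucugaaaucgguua

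miR-29c-3p: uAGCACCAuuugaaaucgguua

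miR-27a-3p: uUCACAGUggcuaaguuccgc

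miR-27b-3p: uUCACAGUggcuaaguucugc

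miR-93-5p: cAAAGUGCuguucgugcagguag

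miR-106b-5p: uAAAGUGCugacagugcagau

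miR-16-5p: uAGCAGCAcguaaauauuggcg

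miR-192-5p: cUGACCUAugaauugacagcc

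miR-215-5p: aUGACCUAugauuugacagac

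The last sequences are shown because a comparison below turns on them: miR-25-3p and miR-92a-3p share a seed and come from different clusters, the arms of miR-423 were both higher, and miR-451a is the most red cell restricted miRNA in blood.

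miR-25-3p: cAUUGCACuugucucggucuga

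miR-92a-3p: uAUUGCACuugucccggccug

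miR-423-5p: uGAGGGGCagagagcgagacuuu

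miR-423-3p: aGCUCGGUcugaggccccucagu

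miR-451a: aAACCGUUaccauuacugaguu

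Library depth was low. Total counts ranged from 63956 to 263211 in Control and from 66652 to 143856 in S24h, so that the 3 counts allowed by a count of 0 correspond to between 11.4 and 46.9 CPM in a library (counting error only). At 53 of the 243 miRNAs the median was under 5 counts. The number of miRNAs expected at a common depth of 63956 counts was 259 ± 29.4 (SD, n = 6) in Control and 236 ± 11.1 in S24h, a difference of -22.7 that did not pass (exact two-sided permutation test, adjusted p = 0.216 over 4 library measures). Without Control replicate 4, which had the fewest miRNAs in Control, the difference was -33.0 (exact permutation test, adjusted p = 0.00866). The share of counts in the 10 most abundant miRNAs of a library was 51.1% ± 4.49 in Control and 52.1% ± 2.96 in S24h (exact permutation test, adjusted p = 0.647).

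Surgery was followed at 24 h by differences in both directions. Values below are CPM on library sizes scaled by TMM (the trimmed mean of M values of edgeR), and a miRNA was called when the Benjamini-Hochberg adjusted p of edgeR's quasi-likelihood test was under 0.05 and the fold change was at least 1.5. The test called 35 (14.4%) of the 243, with 18 (7.41%) above and 17 (7.0%) below Control in S24h, and the median log2 fold change over all of them was -0.05. At an unadjusted p under 0.05 there were 74 miRNAs (30.5%), and DESeq2 called 48 (19.8%), 23 (9.47%) higher and 25 (10.3%) lower. In 15 miRNAs (6.17%) the 6 S24h mice did not overlap with the 6 Control mice, 7 of them (2.88%) higher and 8 (3.29%) lower. miR-215-3p, which passed the filter through Control libraries alone, is among the lower miRNAs in each of these counts. The balance of directions depended on the scaling. With TMM factors computed without red cell miRNAs the median was -0.18, with 13 higher and 19 lower calls. Fitting the S24h and Control libraries alone gave 16 higher and 24 lower, and a filter over all 24 libraries gave 10 higher and 20 lower.

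The called miRNAs were mostly abundant ones. Among the 50 most abundant miRNAs, which make up 20.6% of all 243, were 12 of the 18 higher and 9 of the 17 lower miRNAs. The higher group held 12 miRNAs from 5p arms and 4 from 3p arms, the lower group 6 and 10, and all 243 miRNAs 121 and 116.

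**Figure D1:**
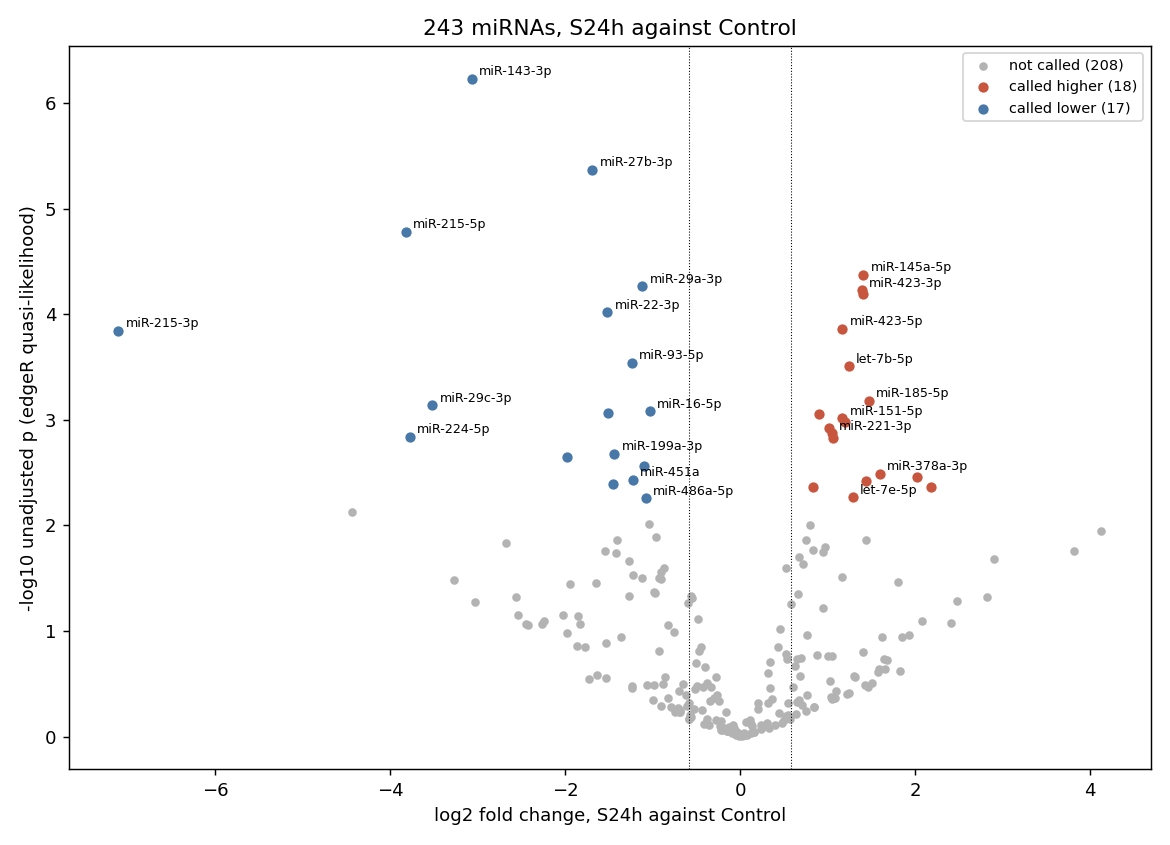
Each point is 1 of the 243 miRNAs. The horizontal axis is the log2 fold change of S24h against Control, the vertical axis is -log10 of the unadjusted edgeR p, and dotted lines mark a fold change of 1.5. The 18 called higher (red) lie mostly between 1 and 2, while miR-215-3p, miR-215-5p, miR-224-5p, miR-29c-3p and miR-143-3p reach beyond -3. The fitted value of miR-215-3p, at 0 in all S24h mice, depends on the prior count.

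The transcript of miR-143 and miR-145a, known for its high activity in smooth muscle, gave the smallest p of the comparison and differences of opposite sign. miR-143-3p ranged from 9261 to 85982 CPM (median 15639) in Control and from 2902 to 4425 CPM (median 3298) in S24h. All 6 surgery mice lay under the lowest Control mouse, and the S24h values were far closer together than those of Control. The log2 fold change was -3.07 (SE 0.49, edgeR adjusted p = 1.43e-04), and it was -2.36 without Control replicate 4, the mouse with 85982 CPM.

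The 5p arm of miR-145a, from the same transcript, was higher after surgery. miR-145a-5p ranged from 1982 to 4869 CPM (median 3156) in Control and from 4809 to 14374 CPM (median 7517) in S24h, and the ranges touched at 1 mouse of each group. Its log2 fold change was 1.41 (SE 0.30, edgeR adjusted p = 0.00221). The 3p arm, miR-145a-3p, had medians of 439 CPM in Control and 129 CPM in S24h (log2 fold change -1.98, edgeR adjusted p = 0.0218). That call was lost without Control replicate 4 or without Control replicate 5 (largest edgeR adjusted p = 0.0987), and in limma-voom (adjusted p = 0.287).

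miR-215, a miRNA of intestinal, liver and kidney epithelium, was lower after surgery in its 5p arm, while its 3p arm passed the filter through Control alone. miR-215-5p ranged from 1495 to 9238 CPM (median 3411) in Control and from 0 to 973 CPM in S24h, where the median was 14.5 counts. The groups did not overlap, and 2 S24h libraries had a count of 0. The log2 fold change was -3.82 (SE 0.75, edgeR adjusted p = 0.00135), and it was -4.67 without S24h replicate 2. The other arm, miR-215-3p, had 5 to 45 counts in Control (median 88.1 CPM) and a count of 0 in all 6 S24h libraries, which is at least 3.57-fold lower when 3 counts per library are allowed in S24h. Without Control replicate 4, the mouse with 45 counts, that bound was 2.20-fold. It reached 10 CPM in Control libraries alone, so that it entered the 243 miRNAs through the group in which it is high. The hairpin lies on chromosome 1 (185313581 to 185313692, plus strand, GRCm38), in an exon of the antisense gene 2010103J01Rik, beside Mir194-1. Its seed partner miR-192-5p, with most of its RNA in liver and gut, had medians of 4518 CPM in Control and 1153 CPM in S24h, but the ranges overlapped and it was not called (log2 fold change -1.55, edgeR adjusted p = 0.0878). Without S24h replicate 2 miR-192-5p was at -2.59 and called (edgeR adjusted p = 0.00375), as it was under 3 of 14 other settings.

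miR-29a-3p, miR-29c-3p and miR-27b-3p were lower, while miR-29b-3p (-0.71) and miR-27a-3p were not called. miR-29a-3p ranged from 8031 to 12861 CPM (median 10610) in Control and from 3628 to 5700 CPM (median 4715) in S24h. No value of one group fell within the other, with a log2 fold change of -1.12 (SE 0.24, edgeR adjusted p = 0.00221). miR-29c-3p, encoded on another chromosome, had 5 to 70 counts in Control and 0 to 7 counts in S24h, where 4 libraries had none, and its log2 fold change of -3.52 (edgeR adjusted p = 0.0127) rests on low counts: it was -4.96 without S24h replicate 2.

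miR-27b-3p, a regulator of lipid metabolism and of vessel growth, ranged from 5941 to 9711 CPM (median 7703) in Control and from 1635 to 3048 CPM (median 2319) in S24h. The groups were fully apart, and the log2 fold change was -1.69 (SE 0.31, edgeR adjusted p = 5.22e-04). Its near-identical relative miR-27a-3p, encoded elsewhere, differed by -0.55 and was not called (edgeR adjusted p = 0.159). Of the 6 measured miRNAs of the miR-23/27/24 clusters, miR-27b-3p alone was called, beside 14.4% of all 243 miRNAs, while 4 had an unadjusted p under 0.05, and their median was -0.55. miR-23a-3p, the most abundant of them, differed by -0.24 (edgeR adjusted p = 0.666).

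Of the 5 measured miRNAs from the cluster within Mcm7 on chromosome 5 (Mir106b in an intron, Mir25 and Mir93 overlapping an annotated exon), a gene of the replication helicase, 3 were lower, beside 7.0% of all 243 miRNAs. miR-93-5p, which represses the cell cycle inhibitor p21, ranged from 5038 to 7800 CPM (median 6660) in Control and from 1691 to 4673 CPM (median 2430) in S24h. miR-106b-5p ranged from 778 to 1634 CPM in Control and from 206 to 726 CPM in S24h. Both pairs of groups were without overlap, with log2 fold changes of -1.24 (edgeR adjusted p = 0.00633) and -1.51 (edgeR adjusted p = 0.0127). miR-25-3p, the third hairpin of the cluster, ranged from 9581 to 22783 CPM in Control and from 3638 to 10208 CPM in S24h, with a small overlap and a log2 fold change of -1.10 (edgeR adjusted p = 0.0255). Its call was lost in 4 of the 24 fits that left out 1 library. miR-92a-3p, which has the same seed but comes from the miR-17 to miR-92a cluster, had medians of 15048 CPM and 15109 CPM (log2 fold change 0.02, edgeR adjusted p = 0.974, with a sign that turns with the scaling). The difference between miR-25-3p and miR-92a-3p was not tested. None of the 7 listed miRNAs of the miR-17 to miR-92a cluster was called by edgeR (1 at an unadjusted p under 0.05), and their median was -0.70. With RLE factors, library totals, TMM factors without red cell miRNAs and DESeq2, 1 of them was called lower.

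Another 4 miRNAs outside the red cell list below were lower. miR-22-3p, abundant in heart and platelets, ranged from 4179 to 17182 CPM in Control and from 1778 to 4049 CPM in S24h, without overlap (log2 fold change -1.52, SE 0.34, edgeR adjusted p = 0.00290). miR-224-5p, from an intron of Gabre on chromosome X, had 5 to 134 counts in Control, while in S24h it had 22 counts in replicate 6 and none in the other 5. Its log2 fold change of -3.78 (edgeR adjusted p = 0.0156) became -8.62 without S24h replicate 6, a value that depends on the prior count as the other S24h libraries are at 0, and the call was lost without Control replicate 5 (edgeR adjusted p = 0.0539). miR-199a-3p, a miRNA of fibroblasts and platelets, had medians of 2390 CPM and 590 CPM (log2 fold change -1.44, edgeR adjusted p = 0.0214) and lost its call without Control replicate 5 or S24h replicate 6 (largest edgeR adjusted p = 0.0714). Its mature sequence in RefSeq is the same as that of miR-199b-3p, so the split of reads between both is uncertain, and their sum is given with the families below. miR-148a-3p, which is abundant in liver and represses Dnmt1, had medians of 5305 CPM and 1177 CPM (log2 fold change -1.45, edgeR adjusted p = 0.0316), a call that was lost in 8 of the 24 fits with 1 library left out.

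**Figure D2:**
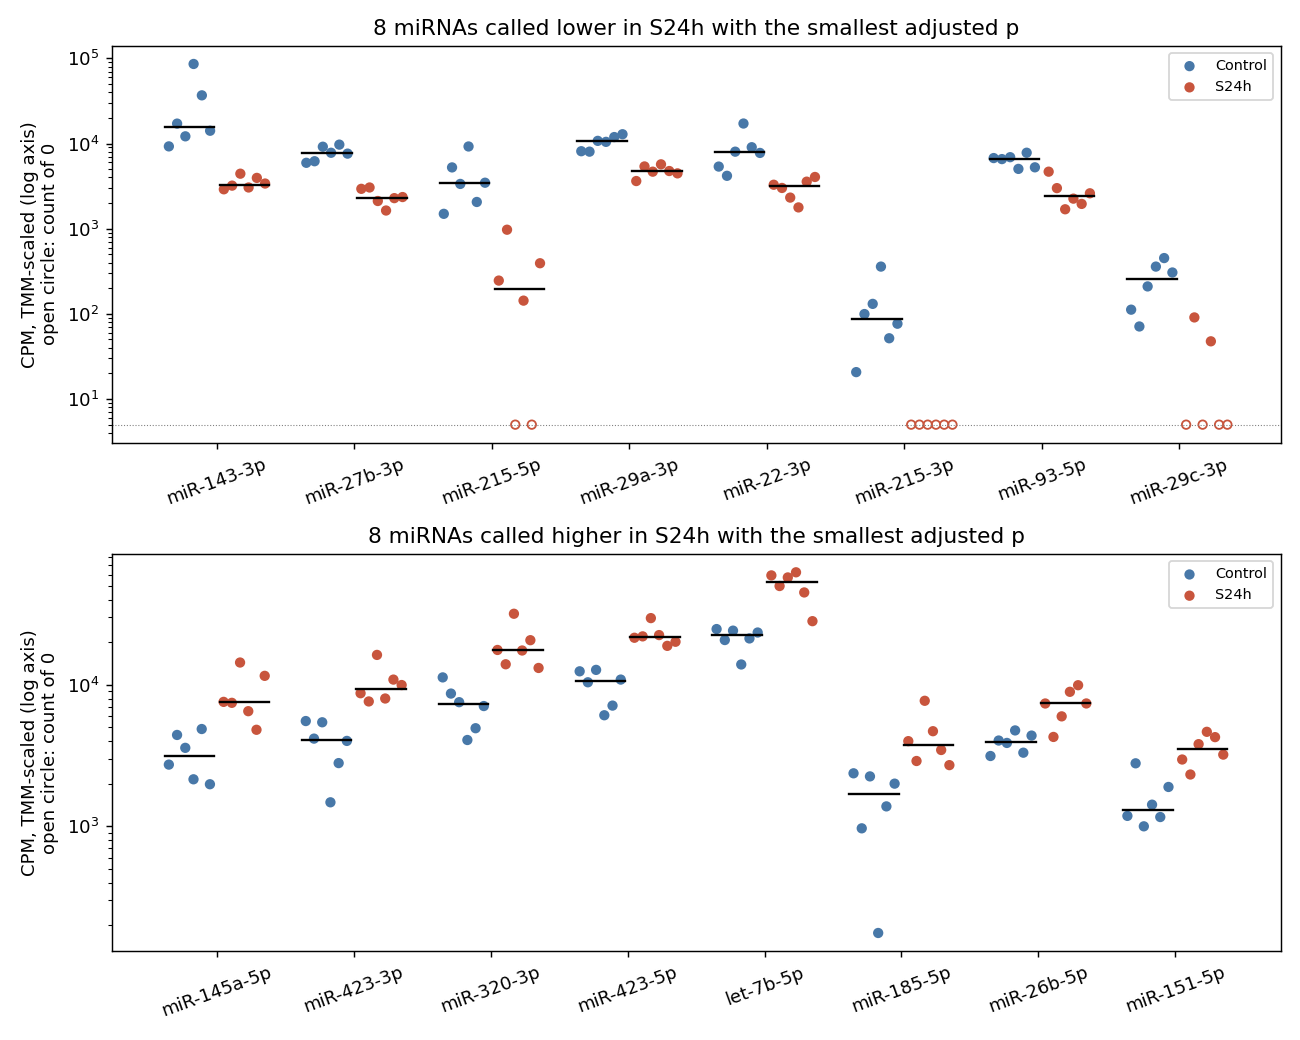
Points are mice, with CPM on TMM-scaled library sizes on a log axis, Control in blue and S24h in red, and bars are group medians. Open circles on the dotted line are counts of 0. The upper panel shows the 8 miRNAs called lower with the smallest adjusted p, in which miR-215-3p has 6 S24h mice at 0. The lower panel shows the 8 called higher, in which 1 Control mouse of miR-185-5p lies at 176 CPM, well under the others.

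Part of the red cell miRNAs was lower. Of 9 measured miRNAs from the list of 11 erythroid miRNAs, 4 were called lower and none higher, with a median of -1.04, beside 7.0% called lower and a median of -0.05 over all 243 miRNAs. Under TMM, upper-quartile factors and library totals 7 of the 9 were below 0, and miR-144-5p (0.04) and miR-92a-3p (0.02) lay just above it under TMM. All 9 were below 0 with RLE factors, DESeq2 and TMM factors computed without this list. The calls numbered 3 with upper-quartile factors, 5 with RLE factors, library totals and TMM without this list, and 6 with DESeq2. miR-451a, which red cell precursors make without Dicer, ranged from 19880 to 45354 CPM (median 30712) in Control and from 7887 to 24213 CPM (median 12308) in S24h. Its ranges overlapped, with all 6 S24h mice under the Control median, and the log2 fold change was -1.23 (SE 0.39, edgeR adjusted p = 0.0307). miR-16-5p, a repressor of cyclins and Bcl2, had medians of 9437 CPM and 4688 CPM (log2 fold change -1.03, edgeR adjusted p = 0.0127), and miR-25-3p, also on this list, is given above. miR-486a-5p had medians of 22909 CPM and 12421 CPM (log2 fold change -1.08, edgeR adjusted p = 0.0383).

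miR-486b-5p, the second most abundant of the 243 miRNAs, had medians of 68664 CPM and 36976 CPM and was not called (log2 fold change -1.04, edgeR adjusted p = 0.0630), while 10 of 14 other settings called it lower. How reads were divided between miR-486a-5p and miR-486b-5p, which come from the same locus on opposite strands, is uncertain. The calls of miR-451a and miR-486a-5p were lost in 5 and 6 of the 24 fits with 1 library left out. Summed over the list, erythroid miRNAs ranged from 138378 to 260156 CPM in Control and from 45868 to 146388 CPM in S24h. The log2 ratio of miR-451a to miR-23a-3p, which is commonly read as a measure of red cell rupture in serum, was -0.21 ± 0.97 (SD, n = 6) in Control and -1.27 ± 0.57 in S24h (difference -1.06, exact two-sided permutation test, p = 0.0368, adjusted p = 0.147). The part of red cell RNA in the other differences was not tested beyond the scaling without this list.

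Of the miRNAs called higher, let-7b-5p and let-7c-5p gained the most CPM. let-7b-5p ranged from 13924 to 24774 CPM (median 22347) in Control and from 28177 to 62425 CPM (median 53671) in S24h. let-7c-5p ranged from 22732 to 30817 CPM (median 25841) in Control and from 42260 to 62965 CPM (median 53815) in S24h. Neither overlapped between the groups, with log2 fold changes of 1.24 (SE 0.31, edgeR adjusted p = 0.00633) and 1.02 (SE 0.29, edgeR adjusted p = 0.0144). The call of let-7c-5p was lost without a filter (edgeR adjusted p = 0.0640). The let-7b and let-7c-2 hairpins lie within 801 bases on chromosome 15, in exons of Lncppara, and let-7c-1 on chromosome 16 gives the same mature let-7c-5p. let-7e-5p, from an intron of Spaca6 on chromosome 17, had medians of 1338 CPM and 3085 CPM (log2 fold change 1.29, edgeR adjusted p = 0.0383). It lost its call in 9 of the 24 fits with 1 library left out and without a filter (edgeR adjusted p = 0.0530).

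All 9 measured members of the let-7 and miR-98 list were above 0, under each of the 5 scalings and DESeq2 as well, with a median of 0.95 and 3 calls (2 with TMM factors computed without red cell miRNAs). Over all 243 miRNAs 117 were above 0, the median was -0.05 and 7.41% were called higher. let-7a-5p and let-7f-5p, among the most abundant of all miRNAs, had log2 fold changes of 0.95 (edgeR adjusted p = 0.0878) and 0.97 (edgeR adjusted p = 0.0862). They were called under 2 and 3 of 14 other settings, and in none of the 24 fits with 1 library left out. Their sequences differ from those of called members by few bases, so that reads with an error could be counted for another member. Summed over the list, let-7 miRNAs ranged from 136051 to 201667 CPM in Control and from 230043 to 357684 CPM in S24h, and no S24h mouse fell within the Control range.

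Both miR-26 miRNAs were higher. These are encoded within the Ctdsp1, Ctdsp2 and Ctdspl genes, a family of phosphatases, and repress Ezh2. miR-26a-5p ranged from 8304 to 18735 CPM (median 11588) in Control and from 19491 to 40199 CPM (median 29375) in S24h, without overlap. The log2 fold change was 1.2 (SE 0.33, edgeR adjusted p = 0.0134), and that of miR-26b-5p, whose ranges overlapped, was 0.90 (SE 0.25, edgeR adjusted p = 0.0127). miR-26b-5p lost its call without a filter (edgeR adjusted p = 0.106) and in a fit of both groups alone (edgeR adjusted p = 0.0591).

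Both arms of miR-423, from an intron of Nsrp1 on chromosome 11, were higher by like amounts. miR-423-5p ranged from 6092 to 12750 CPM (median 10654) in Control and from 18851 to 29615 CPM (median 21754) in S24h. miR-423-3p ranged from 1477 to 5544 CPM (median 4089) in Control and from 7627 to 16268 CPM (median 9341) in S24h. Both were without overlap, with log2 fold changes of 1.17 (SE 0.27, edgeR adjusted p = 0.00351) and 1.39 (SE 0.30, edgeR adjusted p = 0.00221).

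miR-320-3p and miR-484 are known to reach Dicer without the cut by Drosha that other hairpins need. miR-320-3p ranged from 4072 to 11282 CPM (median 7307) in Control and from 13155 to 31793 CPM (median 17557) in S24h. It was apart in all mice, with a log2 fold change of 1.40 (SE 0.30, edgeR adjusted p = 0.00221). miR-484 had medians of 2610 CPM and 5974 CPM (log2 fold change 1.06, edgeR adjusted p = 0.0156), a call that was lost without S24h replicate 3 (edgeR adjusted p = 0.0577), with the filter over 24 libraries (edgeR adjusted p = 0.0624) and without a filter (edgeR adjusted p = 0.0914).

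miR-185-5p ranged from 176 to 2368 CPM (median 1692) in Control and from 2705 to 7709 CPM (median 3729) in S24h. The groups did not overlap, and the log2 fold change was 1.47 (SE 0.39, edgeR adjusted p = 0.0123). miR-221-3p, a vascular miRNA that represses Kit, had medians of 7334 CPM and 16609 CPM (log2 fold change 1.05, edgeR adjusted p = 0.0155), and lost its call with the filter over 24 libraries (edgeR adjusted p = 0.0624) and without a filter (edgeR adjusted p = 0.0640). miR-151-5p, from an intron of the focal adhesion kinase gene Ptk2, had medians of 1303 CPM and 3508 CPM (log2 fold change 1.17, edgeR adjusted p = 0.0130), and lost its call without a filter (edgeR adjusted p = 0.0620).

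The remaining 5 higher miRNAs also lost their calls in several fits with 1 library left out. miR-378a-3p, encoded in the gene of the mitochondrial coactivator Ppargc1b, and miR-378c had log2 fold changes of 1.6 (edgeR adjusted p = 0.0290) and 2.18 (edgeR adjusted p = 0.0318). S24h replicate 3 held the highest value of both, and without it they were 0.93 (edgeR adjusted p = 0.202) and 1.52 (edgeR adjusted p = 0.179). miR-378c was not called in limma-voom either (adjusted p = 0.0588). miR-181a-5p, which tunes T cell receptor signalling, and miR-181c-5p had log2 fold changes of 0.83 (edgeR adjusted p = 0.0318) and 2.02 (edgeR adjusted p = 0.0304). Each lost its call in 6 of the 24 fits with 1 library left out, and miR-181c-5p was at 2.86 without Control replicate 4 and at 3.54 in limma-voom. Neither was called in a fit of both groups alone (edgeR adjusted p = 0.0861 for miR-181a-5p and 0.160 for miR-181c-5p) or without a filter, and miR-181a-5p was not with library totals (edgeR adjusted p = 0.0907). miR-339-5p, with a log2 fold change of 1.44 (edgeR adjusted p = 0.0307), lost its call in 3 of them, in a fit of both groups alone (edgeR adjusted p = 0.104) and without a filter (edgeR adjusted p = 0.103), and miR-378a-3p lost it with robust estimation (edgeR adjusted p = 0.0561). With TMM factors computed without red cell miRNAs the calls of miR-181a-5p, miR-181c-5p, miR-339-5p and miR-378c were lost (edgeR adjusted p between 0.0541 and 0.0813), as was that of let-7e-5p (edgeR adjusted p = 0.0750). These 5 and miR-378a-3p lost them with the filter over 24 libraries as well. In all, 21 of the 35 miRNAs kept their call whichever library was left out, and 14 did not.

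**Figure D3:**
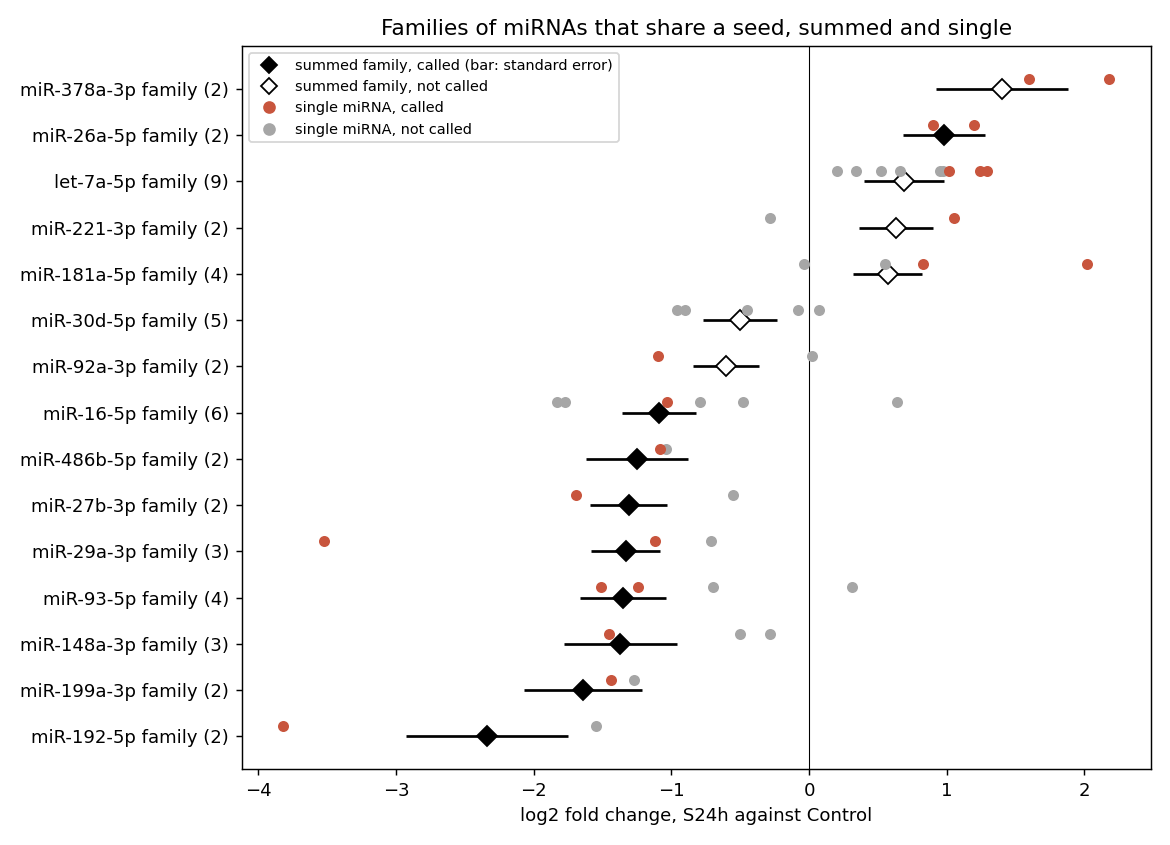
Log2 fold change of S24h against Control for families of miRNAs with the same bases 2 to 8, with the number of measured members in brackets. Diamonds are families tested as a sum, with bars of 1 standard error, filled where called. Circles are single members, red where called. In the miR-192-5p, miR-29a-3p and miR-93-5p families single members spread far from the sum, while those of miR-26a-5p and miR-486b-5p lie close to it.

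Sums over families do not depend on how reads were divided between near-identical members. Their TMM factors were computed anew on the summed counts, and values of families of 1 miRNA moved as well. For miR-22-3p the log2 fold change was -1.69 in place of -1.52. miR-484 was at 0.86 in place of 1.06 and was not called (edgeR adjusted p = 0.0527). The part of this shift in the family calls was not tested. Counts of the table were summed by seed, and of the families that passed the same filter 21 (10.8%) were called, 7 (3.61%) higher and 14 (7.22%) lower, with a median log2 fold change of -0.20. Here too the balance moved with the scaling, to 14 higher and 14 lower with RLE factors, to 15 higher and 11 lower with upper-quartile factors and to 17 higher and 14 lower with DESeq2. Of 29 families with at least 2 measured members, 9 were called, 8 of them lower. The miR-29 family, of which miR-29a-3p made up 96.6%, was at 11470 ± 2362 CPM (SD, n = 6) in Control and 4554 ± 626 CPM in S24h, without overlap (log2 fold change -1.33, edgeR adjusted p = 6.41e-04). The miR-27 family was at 13458 ± 2481 and 5412 ± 1092 CPM (edgeR adjusted p = 0.00234), and the miR-17/93 family at 8501 ± 1366 and 3339 ± 1200 CPM (edgeR adjusted p = 0.00435), both without overlap. The miR-15/16 family differed by -1.09 without overlap (edgeR adjusted p = 0.00575), but was not called with upper-quartile factors (edgeR adjusted p = 0.0751), without a filter (edgeR adjusted p = 0.0512) or without S24h replicate 2 (edgeR adjusted p = 0.0733).

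The summed family of miR-192 and miR-215 differed by -2.34 (edgeR adjusted p = 0.00721, and -3.12 without S24h replicate 2), miR-199a/b by -1.64 (edgeR adjusted p = 0.00864), miR-486 by -1.25 (edgeR adjusted p = 0.0195) and miR-148a by -1.37 (edgeR adjusted p = 0.0206). The miR-148a call was lost without S24h replicate 1 or 3 (largest edgeR adjusted p = 0.0612). The miR-26 family, at 17300 ± 3729 and 34054 ± 10876 CPM, was the called family of several members that was higher (log2 fold change 0.98, edgeR adjusted p = 0.0276). It lost the call without Control replicate 1, S24h replicate 5 or S24h replicate 6 (edgeR adjusted p up to 0.0826). The let-7 family, the largest by counts, was at 176031 ± 19096 and 284614 ± 54939 CPM without overlap, yet its log2 fold change of 0.69 (SE 0.29) did not pass (edgeR adjusted p = 0.107). It was called under 7 of 14 other settings, among them RLE factors (0.91, edgeR adjusted p = 0.0422), upper-quartile factors (1.01, edgeR adjusted p = 0.0353), DESeq2 (adjusted p = 0.00737) and limma-voom (adjusted p = 0.0305), and in 1 of 24 fits with 1 library left out. The families of miR-378 (1.40, edgeR adjusted p = 0.0556), miR-221 (0.63, edgeR adjusted p = 0.107), miR-181 (0.57, edgeR adjusted p = 0.118) and miR-25/92a (-0.60, edgeR adjusted p = 0.0930) were not called, and each holds a called single miRNA.

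**Figure D4:**
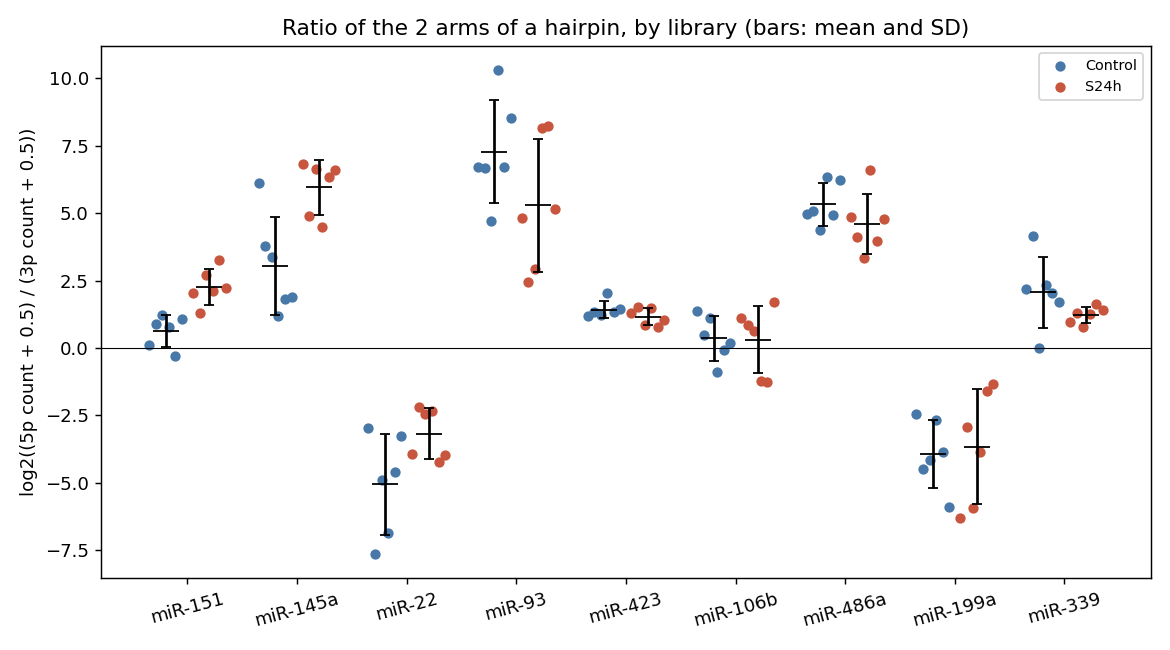
The log2 ratio of 5p to 3p counts, with 0.5 added to each, for 9 hairpins of which at least 1 arm was called. Points are libraries, Control in blue and S24h in red, and bars are the mean and SD of 6. The miR-151 points of the S24h mice, from 1.29 to 3.27, lie above those of the Control mice, from -0.29 to 1.21.

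The 2 arms of a hairpin were also set against each other within each library, a ratio that no library scaling can move. Among 21 hairpins with enough counts in both arms, 1 (4.76%) was called. The log2 ratio of miR-151-5p to miR-151-3p was 0.63 ± 0.59 (SD, n = 6) in Control and 2.26 ± 0.67 in S24h, a difference of 1.64 with no overlap (exact two-sided permutation test, p = 0.00216, the smallest that 6 against 6 mice can give, adjusted p = 0.0455). In CPM its 5p arm was higher, while its 3p arm, at -0.47, was not called. No hairpin was called without any one of Control replicates 2, 4, 5 and 6. The groups of miR-151 still did not overlap in these tests, as leaving out a mouse cannot make them overlap. Among 21 hairpins, a single one passes only at the smallest p that the test can give.

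For miR-145a the ratio went from 3.03 ± 1.81 to 5.95 ± 1.01 (difference 2.92, exact permutation test, p = 0.0108, adjusted p = 0.114), with higher 5p and lower 3p counts. miR-423 stayed near the same ratio, 1.42 ± 0.32 in Control and 1.16 ± 0.32 in S24h (exact permutation test, adjusted p = 0.355). Of 49 hairpins with both arms among the 243 miRNAs, the arms differed in sign in 18, and in 4 of the 11 with a called arm, a like share. Besides miR-151 and miR-145a these were miR-93, whose 3p arm was at 1.1 without a call (edgeR adjusted p = 0.590), and miR-221, whose 5p arm was at -0.69 without a call (edgeR adjusted p = 0.747).

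**Figure D5:**
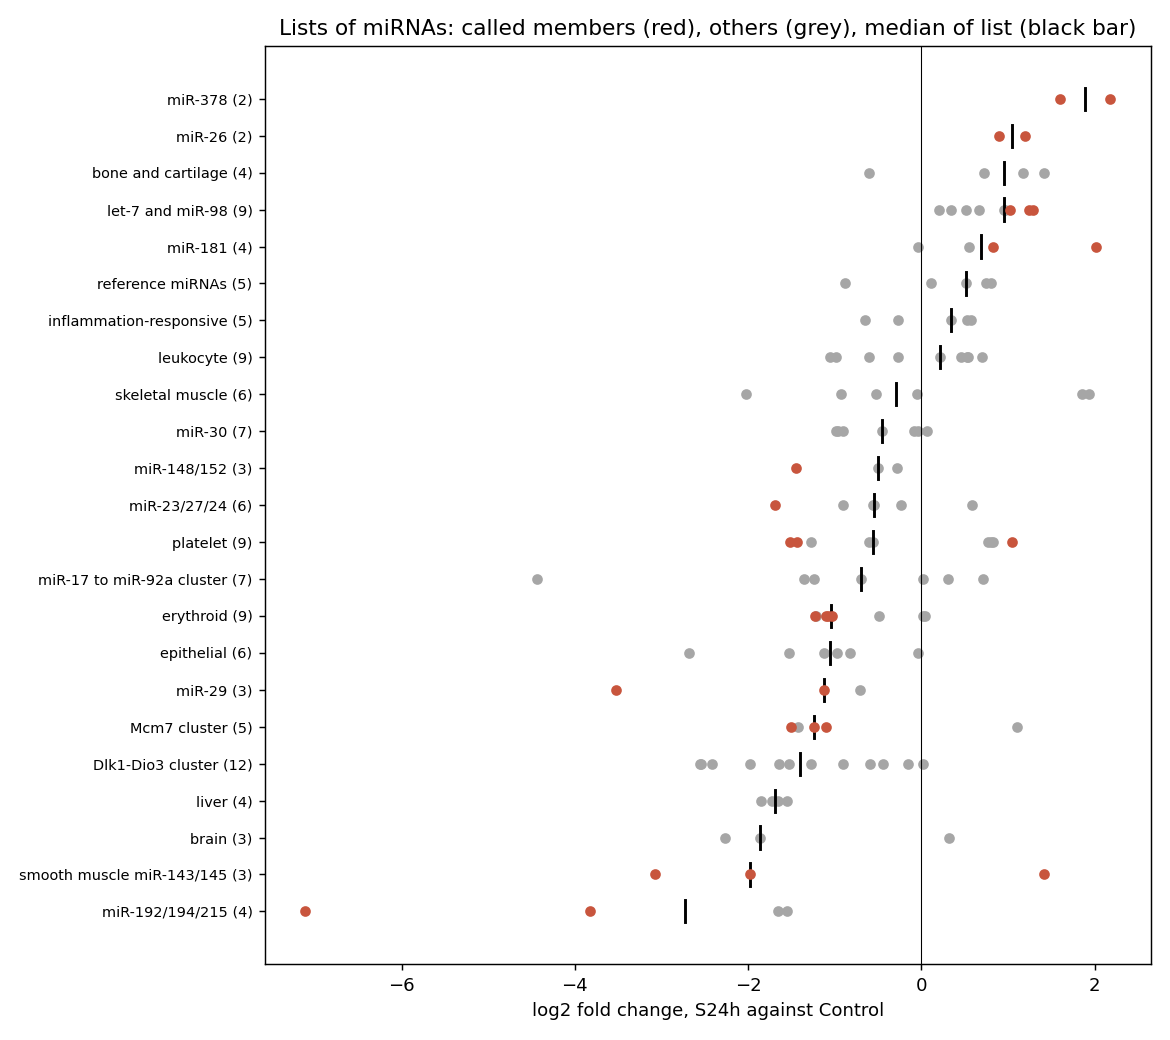
Log2 fold change of S24h against Control for the measured members of 23 lists of miRNAs, with their number in brackets. Red points were called, grey ones were not, and black bars are list medians. The lists around miR-215, miR-143 and miR-29 and those of liver, brain, the Dlk1-Dio3 and Mcm7 clusters, epithelium and erythroid cells have medians under -1, and the miR-26 and miR-378 lists have medians above 1.

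Lists of miRNAs that mark other sources are given by their counts, beside 18 higher and 17 lower calls and a median of -0.05 among all 243 miRNAs. Of 9 platelet miRNAs, 1 was called higher (miR-221-3p) and 2 lower (miR-22-3p and miR-199a-3p), with a median of -0.56. An unadjusted p under 0.05 was reached by 7 of the 9 in edgeR, beside 30.5% of all 243 miRNAs. miR-191-5p, which is also on the list of references, had medians of 35358 CPM and 53099 CPM and was not called (log2 fold change 0.80, edgeR adjusted p = 0.0630), while 6 of 14 other settings called it higher. None of the 4 liver miRNAs was called by edgeR or DESeq2, although all 4 were below 0 (2 at an unadjusted p under 0.05) with a median of -1.69. miR-122-5p, the dominant miRNA of hepatocytes, ranged from 3341 to 174287 CPM (median 67997) among Control mice and from 8351 to 49926 CPM (median 16519) in S24h. The Control mice thus differed among themselves more than the groups did, and the log2 fold change of -1.85 had an SE of 1.0 (edgeR adjusted p = 0.214). It was -0.75 in limma-voom (adjusted p = 0.597) and was called without a filter (-1.97, edgeR adjusted p = 0.00529).

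None of the 6 skeletal muscle miRNAs was called by edgeR or DESeq2, or had an unadjusted p under 0.05, with a median of -0.29. miR-1a-3p, the dominant muscle miRNA, had medians of 34200 CPM and 22916 CPM (log2 fold change -0.93, edgeR adjusted p = 0.355), but was called in a fit of both groups alone (edgeR adjusted p = 0.0237). miR-499-5p, of slow muscle and heart, had 0 to 32 counts in Control and 0 to 15 in S24h (log2 fold change -2.02, edgeR adjusted p = 0.213), and was at -3.29 without S24h replicate 6 (edgeR adjusted p = 0.0806). The same held for 9 leukocyte miRNAs (median 0.21), where miR-223-3p of neutrophils had medians of 3673 CPM and 2171 CPM (edgeR adjusted p = 0.172). The 5 inflammation-responsive miRNAs had a median of 0.34 and likewise no call or unadjusted p under 0.05, and miR-21a-5p, the most abundant of the 243, had medians of 58599 CPM and 74597 CPM (log2 fold change 0.34, edgeR adjusted p = 0.565).

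The 6 epithelial miRNAs, all below 0 with a median of -1.05, had no edgeR call, while 3 had an unadjusted p under 0.05 and DESeq2 called 1. miR-205-5p, their most abundant, was at -0.04, and miR-375-3p of endocrine cells was at -0.97 (edgeR adjusted p = 0.155). Of 11 brain miRNAs 3 were measured, with a median of -1.86, no call by edgeR or DESeq2 and no unadjusted p under 0.05. miR-128-3p was at 0.32 (edgeR adjusted p = 0.488), miR-9-5p at -1.86 and miR-132-3p at -2.27. Both low values moved with 1 library, miR-9-5p to -4.00 without S24h replicate 5 (edgeR adjusted p = 0.0620) and miR-132-3p to -4.35 without S24h replicate 2 (edgeR adjusted p = 0.0391), and limma-voom called both (adjusted p = 0.0360). The imprinted Dlk1-Dio3 cluster had 12 of its 48 listed miRNAs measured, 11 of them below 0 with a median of -1.40 and none called by edgeR or DESeq2 (2 at an unadjusted p under 0.05), and its most abundant was miR-434-3p (log2 fold change -1.27, edgeR adjusted p = 0.159). miR-434-3p was called without S24h replicate 2 (-1.96, edgeR adjusted p = 0.0264) and in limma-voom (-2.06, adjusted p = 0.0360). miR-541-5p of that cluster reached 10 CPM in 5 libraries and so was not among the 243. It had 0 to 136 counts in Control and none in S24h, at least 8.38-fold lower, and was called with the filter over 24 libraries (edgeR adjusted p = 2.70e-04). Without Control replicate 1, the mouse with 136 counts, that bound was 6.80-fold. The 4 bone and cartilage miRNAs had a median of 0.95 and no call by edgeR or DESeq2 (2 at an unadjusted p under 0.05), with miR-140-3p, of cartilage, at 0.72 (edgeR adjusted p = 0.103). The 5 miRNAs often used as references had a median of 0.52 and no edgeR call (3 at an unadjusted p under 0.05, and 1 called higher with upper-quartile factors and with DESeq2). Among them miR-103-3p was at 0.75 (edgeR adjusted p = 0.0777), with all 6 S24h mice above the Control median. It was called with a filter at a mean of 100 CPM (0.76, edgeR adjusted p = 0.0470) and without Control replicate 6 (0.94, edgeR adjusted p = 0.0338). The 7 miR-30 miRNAs had a median of -0.45 and no edgeR call (3 at an unadjusted p under 0.05, and 1 called with DESeq2), with miR-30d-5p at -0.08 (edgeR adjusted p = 0.898).

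The same model gave the S24h mice against those of the other time points. Against S6h, calls were made for 41 miRNAs (16.9%), of which 20 (8.23%) were above and 21 (8.64%) below the 6 h level. With TMM factors computed without red cell miRNAs these were 12 higher and 33 lower, and with the filter over 24 libraries 16 higher and 35 lower. miR-143-3p differed from S6h by -3.32 (edgeR adjusted p = 2.02e-05), miR-27b-3p by -2.10 (edgeR adjusted p = 2.02e-05), miR-320-3p by 1.98 (edgeR adjusted p = 2.73e-05) and miR-484 by 1.78 (edgeR adjusted p = 9.56e-05). Of the 6 skeletal muscle miRNAs, 3 were lower than at 6 h and none higher, with a list median of -1.24 beside 0.02 over all 243 miRNAs. These were miR-1a-3p at -2.62 (edgeR adjusted p = 0.00584), miR-133a-3p at -1.74 (edgeR adjusted p = 0.0313) and miR-499-5p at -4.04 (edgeR adjusted p = 0.0124), whereas miR-133a-5p (-0.74), miR-133b-3p (-0.21) and miR-206-3p (-0.59) were not called. miR-375-3p was at -1.76 (edgeR adjusted p = 0.00721) and miR-140-3p at 1.16 (edgeR adjusted p = 0.00650). Against S6h no call was made for miR-106b-5p (-1.0, edgeR adjusted p = 0.0817), miR-26b-5p (0.53, edgeR adjusted p = 0.135), miR-148a-3p (-0.90, edgeR adjusted p = 0.181), miR-181a-5p (0.36, edgeR adjusted p = 0.393), miR-451a (-1.06, edgeR adjusted p = 0.0548) or miR-486a-5p (-0.60, edgeR adjusted p = 0.274), among others. The S24h libraries are shared by these comparisons, and the methods state that mice were assigned to the time points at random. They also give the S6h mice control mice apart from those of the S24h and S72h mice. Daily analgesia was given to the S24h and S72h mice. Time, analgesia and set of animals therefore cannot be told apart between S6h and S24h.

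Against S72h, edgeR called none of the 243 miRNAs (0%), while 22 (9.05%) had an unadjusted p under 0.05 and DESeq2 called 3. miR-143-3p differed from S72h by -0.73 (edgeR adjusted p = 0.656), miR-27b-3p by -1.07 (edgeR adjusted p = 0.147), miR-215-5p by -2.17 (edgeR adjusted p = 0.187) and let-7b-5p by -0.04 (edgeR adjusted p = 0.986). A difference that did not pass does not show that both times were alike.

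Filters changed the calls as given above, and other numbers of libraries among these 12 were not tried. At exactly 6 libraries with 10 CPM lay 28 of the miRNAs, with a mean of 10.9 to 130 CPM, of which miR-215-3p was called. At exactly 5, just outside, lay 14 miRNAs with a mean of 23.9 to 154 CPM, of which miR-541-5p and miR-16-2-3p reached 10 CPM in Control libraries alone.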

How the data were processed

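Serum EV small RNA of 24 mice was sequenced in 1 library per mouse. According to the methods, the authors removed adapters, aligned reads to GRCm38/mm10 with Bowtie, kept reads of miRNA length with SAMtools and assigned them to the mature miRNAs of miRBase with featureCounts. The deposited table holds whole-number counts without normalization. Handling of reads that match several loci is not given in the sources used here. Libraries were grouped by their labels.

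Tests ran in edgeR 4.0.16, with DESeq2 1.42.0 and limma 3.58.1 as alternatives (R 4.3.3), and the rest in Python 3.11.15. A miRNA was tested at 10 CPM or more in 6 of the 12 Control and S24h libraries. One edgeR quasi-likelihood model with TMM factors covered all 24 libraries, and a call required both an adjusted p below 0.05 and a change of at least 1.5-fold. Families summed all miRNAs with the same bases 2 to 8. Of the miRNAs without a sequence, 7 were joined by name, and the others each stood as a family of their own. Arm ratios needed a median of 10 counts in both arms, and exact tests used 924 assignments. The model was tested on simulated data. The mice are biological replicates, and p-values set group differences against the spread between mice. In the edgeR model that spread was estimated over all 24 libraries.

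The miRNAs and the 23 lists were chosen with earlier results of these data known. Named were all called miRNAs (the 8 with the smallest adjusted p per direction with ranges), the 10 most abundant, called and most abundant list members, the qPCR miRNAs of the study, called families, and hairpins with arms called or opposed. Positions are from Gencode GRCm38. Alternatives concerned test, scaling, filter, libraries in the fit, call rule, pseudocount, replicate block and each library left out.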

Additional observations from a re-analysis of the deposited data

Results flagged for a closer look

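In 9 of 118 groups of 6 mice checked, 1 mouse stood apart from the other 5, where chance alone would give 5.90. Values give how far that mouse lay from its neighbour, divided by the full log2 range of its group. Control replicate 4 was the mouse in 5 of them. It was lowest for let-7b-5p (0.690), miR-185-5p (0.654), miR-339-5p (0.692) and miR-128-3p (0.753), and highest for miR-16-5p (0.684). Without this mouse 29 miRNAs were called in place of 35, 14 higher and 15 lower, and let-7b-5p, miR-185-5p, miR-339-5p and miR-16-5p kept their calls.

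The other 4 were spread over 4 mice. S24h replicate 1 was highest for miR-16-5p (0.763), S24h replicate 6 was highest for miR-224-5p (1.0, as the other 5 mice had no count), Control replicate 1 was highest for miR-486b-5p (0.659) and S24h replicate 5 was lowest for miR-434-3p (0.652). The S24h mice differed from the S6h mice in 41 miRNAs, tested directly in the same model.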

How the results depend on the processing

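Of the 35 called miRNAs, under 14 settings of the analysis 431 of 489 values kept direction and call, 58 lost the call and none turned, and with 1 library left out 780 of 840 did and 60 lost it. The miRNAs called numbered 55 with limma-voom and 10 in a test of the change being above 1.5-fold, families 36 and 10, and miRNAs against S6h 63 and 22. Against S72h there were 3 with DESeq2, 1 with the filter over 24 libraries and 9 without a filter. No arm ratio was called with a median of 5 counts or with a replicate block, for which 6 pairs are too few to reach the threshold. The share of the most abundant miRNAs turned to -1.13 points for the top 5. miR-92a-3p turned to -0.02 with DESeq2 and RLE factors, -0.12 with TMM factors without red cell miRNAs, -0.15 with the filter over 24 libraries, -0.09 without a filter and -0.13 in a fit of both groups alone. Without a filter 10 miRNAs were higher and 29 lower, and 17 and 35 against S6h. The cause was not tested.

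With 1 library left out the calls ranged from 25 (without Control replicate 5) to 50 (without S24h replicate 2) for miRNAs, 18 to 27 for families, 32 to 51 against S6h, 0 to 2 against S72h and 0 to 2 for arm ratios. The expected number of miRNAs differed by -33.0 to -16.0, the share of the top 10 by -0.137 to 1.97 points, the log2 ratio of miR-451a to miR-23a-3p by -1.25 to -0.75 and the log2 total by -0.62 to -0.21. miR-92a-3p ranged from -0.13 to 0.16, miR-205-5p from -0.47 to 0.10 and miR-30d-5p from -0.26 to 0.18.

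Labels number the mice 1 to 6 in each group, but same-numbered mice did not deviate together (correlations -0.117 to 0.0564). With the replicate block 35 miRNAs were called, 18 higher and 17 lower, of which 33 were shared with the fit without it. miR-145a-3p (edgeR adjusted p = 0.0505) and miR-378c (edgeR adjusted p = 0.0713) lost their calls, miR-191-5p and miR-486b-5p gained one, and miR-30d-5p was at 0.00. Depth limits what low miRNAs can show, since 1 count is worth 3.80 to 15.6 CPM.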
